A study of Mus musculus with 18 samples.

Results

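The genes described are 7 subunits of the GABA-A receptor, Gabra2, Gabra3, Gabra4, Gabra5, Gabrb1, Gabrb2 and Gabrg1, taken as every probe set that the array's annotation assigns to 1 of these symbols and to no other gene. They made up 7 of the 14292 genes tested, and 21 of the 34945 probe sets with a single gene. The probe set with the highest mean over the arrays stood for each gene, and all 7 lay above the filter on dim probe sets (a log2 mean of 5.255). The RNA was that of cortical interneurons labelled as coming from the caudal ganglionic eminence, an embryonic structure that supplies many interneurons of the upper layers. The cells were sorted by their GFP from mice of the genotype GAD65-GFP (control) or Htr3a-KO;GAD65-GFP, so every group carried GFP under control of GAD65, a gene of GABA-producing neurons in general. Both genotypes were taken at E14.5 during tangential migration, at E18.5 during entry into the cortical plate, and at P2 during settling in the cortex. Each of the 6 groups had 3 arrays, each from a different litter with at least 4 brains pooled, for 18 arrays in all. Values are log2 intensities, and ± is the SD over 3 arrays.

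GABA-A receptors are chloride channels opened by GABA and built as pentamers from alpha, beta and usually gamma or delta subunits. The alpha subunit sets much of the affinity for GABA and, with gamma, the response to benzodiazepines, while beta subunits are needed for assembly and export to the membrane. In immature cortical neurons GABA tends to depolarise, and alpha2, alpha3 and alpha5 are prominent alpha subunits.

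Of the 7 genes, 4 lie in 1 cluster on chromosome 5, in the order Gabrg1, Gabra2, Gabra4 and Gabrb1 with Cox7b2 between Gabra2 and Gabra4, in the RefSeq annotation of GRCm38.p6. Gabra4 and Gabrb1 lie on opposite strands with their starts 387 bases apart and their first bases overlapping, so the bases just before the Gabrb1 start lie inside the Gabra4 gene. Gabra5 lies on chromosome 7 beside Gabrg3, Gabrb2 on chromosome 11 beside Gabra6, and Gabra3 on chromosome X beside Gabrq. All 7 had an entry among the RefSeq promoter sequences of GRCm38.p6, with 11 start windows in all. The 250 bases before the start are shown for 2 neighbours that later moved in opposite directions (Gabrg1 and Gabra2), for Gabra4, which rose with Gabrb1, and for the first of the 3 Gabrb2 starts, the only one with a motif match, read 5′ to 3′ on the strand of the gene. Capitals mark matches on either strand to any of 4 motifs. These were the GC box with the letters GGGCGG, bound by Sp factors, the cAMP response element with TGACGTCA, the TATA box of core promoters with the letters TATAAA, and the Egr motif with GCGNGGGCG. The Egr match in Gabrb2 overlaps its GC box.
Gabrg1, chr5:70842618-70842867, minus strand: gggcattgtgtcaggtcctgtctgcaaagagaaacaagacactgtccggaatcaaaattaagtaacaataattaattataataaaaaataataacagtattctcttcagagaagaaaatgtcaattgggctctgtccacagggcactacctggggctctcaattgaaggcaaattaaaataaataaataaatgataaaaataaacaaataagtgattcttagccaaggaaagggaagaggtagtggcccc
Gabra2, chr5:71095850-71096099, minus strand: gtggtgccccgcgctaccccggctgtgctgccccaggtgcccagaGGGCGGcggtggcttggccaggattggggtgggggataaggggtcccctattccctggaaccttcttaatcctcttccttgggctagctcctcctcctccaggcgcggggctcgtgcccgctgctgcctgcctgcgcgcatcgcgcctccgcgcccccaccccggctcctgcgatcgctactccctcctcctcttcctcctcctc
Gabra4, chr5:71658309-71658558, minus strand: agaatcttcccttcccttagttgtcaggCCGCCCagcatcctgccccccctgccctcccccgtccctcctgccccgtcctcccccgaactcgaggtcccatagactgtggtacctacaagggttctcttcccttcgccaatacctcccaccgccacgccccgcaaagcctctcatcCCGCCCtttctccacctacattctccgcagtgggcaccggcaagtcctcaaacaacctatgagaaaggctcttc
Gabrb2, chr11:42420190-42420439, plus strand: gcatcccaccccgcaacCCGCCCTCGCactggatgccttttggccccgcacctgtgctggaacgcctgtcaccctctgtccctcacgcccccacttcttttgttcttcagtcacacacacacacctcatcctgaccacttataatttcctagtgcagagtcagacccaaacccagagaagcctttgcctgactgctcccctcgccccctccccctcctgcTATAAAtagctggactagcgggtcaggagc

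These windows differed in base composition. The Gabrg1 window had 35.6% G and C and 1 CpG, and 7.87% of the 32851 RefSeq windows of this length had fewer CpGs. The neighbouring Gabra2 window had 70.0% G and C and 18 CpGs, and the Gabra4 window 61.2% and 12, against medians of 52.4% and 6.0 over all windows. Of the 2 Gabrb1 windows, neither printed, the one inside Gabra4 had 64.4% and 18 and the other 50.8% and 6. The 3 Gabrb2 windows had 58.8%, 54.0% and 36.8% G and C, with 8, 8 and 4 CpGs. A GC box stood once in the Gabra2 window and the printed Gabrb2 window and 2 times in that of Gabra4, and 32.7% of all windows held one. The printed Gabrb2 window held 1 TATA box (12.4% of all windows) and 1 Egr motif (4.70%), and the other Gabrb2 windows held no match to the 4 motifs. No cAMP response element (1.55% of all windows) was found in the windows printed. A match describes these letters and is no evidence of binding.

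The sorted pools held RNA of GABA neurons and also of other cells. Gad1, which encodes a GABA-synthesising enzyme, measured 10.88 to 12.34 over the 18 arrays, and Gad2, the gene of GAD65, 8.44 to 11.57. The mean of 7 GABAergic neuron genes (of 9 listed) was 10.11 ± 0.99, 9.27 ± 0.27 and 9.09 ± 0.17 at E14.5, E18.5 and P2 in control samples and 9.76 ± 0.13, 9.08 ± 0.24 and 8.78 ± 0.33 in Htr3a-KO samples. From E14.5 to P2, 4 of the 7 were called lower in each genotype. Of all 14292 genes tested, 3024 in control and 3710 in Htr3a-KO samples were called lower over this span. Htr3a, the serotonin receptor gene targeted in the knockout, measured 7.65 to 10.79 in control and 6.61 to 7.41 in Htr3a-KO arrays, with no overlap between genotypes at any age. By age, the mean of 15 interneuron genes of the caudal ganglionic eminence, Htr3a among them, was 8.21, 8.80 and 9.07 in control samples. In Htr3a-KO samples it was 8.40, 8.60 and 9.05. That of 7 interneuron genes of the medial ganglionic eminence (of 9 listed) was 8.97, 9.08 and 8.86, and 9.25, 8.88 and 8.49. Over the 18 arrays Prox1 and Sp8 of the caudal list measured 4.74 to 7.42 and 7.18 to 9.52, and Lhx6 of the medial list 7.17 to 10.60. The mean of 10 excitatory neuron genes (of 11 listed) went from 10.22 ± 0.37 to 9.38 ± 0.14 and 8.25 ± 0.08 in control samples. In Htr3a-KO samples it went from 10.34 ± 0.22 to 9.47 ± 0.23 and 7.68 ± 0.54. Over the span 9 of the 10 were called lower in each genotype, beside the counts over all genes given above. The mean of 9 striatal projection neuron genes (of 12 listed) was 9.47 ± 0.90, 7.29 ± 0.20 and 7.54 ± 0.18 in control and 8.50 ± 0.52, 7.29 ± 0.13 and 7.24 ± 0.09 in Htr3a-KO samples. From E14.5 to E18.5, when most of the subunit genes rose, 5 of these 9 were called lower in control and 2 in Htr3a-KO samples. Of all genes, 4.93% and 8.88% were called lower in this step. Isl1, a transcription factor of striatal projection neurons, gave 11.97, 12.25 and 8.95 on the E14.5 control arrays and 5.10 to 5.42 on those of E18.5. Over all arrays the striatal mean had a correlation of −0.89 with Gabra4, −0.79 with Gabrb1 and −0.68 to −0.41 with the other 5, and within groups these were −0.59 and −0.06 for Gabra4 and Gabrb1. The part of these cell types in the subunit values was not tested. The mean of 10 oligodendrocyte lineage genes (of 12 listed) went from 6.51 to 6.71 in E14.5 control arrays to 7.97 to 8.60 at E18.5 and 9.46 to 9.77 at P2, and in Htr3a-KO arrays from 6.45 to 6.77 to 8.62 to 8.82 and 9.59 to 9.96. The mean of 12 astrocyte genes (of 13 listed) went from 7.07 to 7.80 in E14.5 control arrays to 7.19 to 8.12 and 10.03 to 10.79, and in Htr3a-KO arrays from 7.44 to 7.88 to 8.20 to 8.46 and 10.46 to 11.10. Aqp4, the astrocyte water channel, was at 3.29 to 4.22 at E14.5 in both genotypes, below the level of the dim filter. The mean of 13 microglia and macrophage genes (of 14 listed) was 6.72 ± 0.74, 6.72 ± 0.57 and 8.43 ± 1.35 by age in control samples. In Htr3a-KO samples it was 8.09 ± 0.99, 6.95 ± 0.28 and 7.06 ± 0.35. The mean of 11 endothelial and mural genes (of 12 listed) was 6.28 ± 0.37, 6.73 ± 0.44 and 7.78 ± 0.50 in control samples. In Htr3a-KO samples it was 7.32 ± 0.59, 7.40 ± 0.32 and 8.10 ± 0.81. In pooled cells a change in the number of cells of a type and a change in RNA per cell cannot be told apart.

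Between E14.5 and E18.5 in control samples, the alpha2, alpha4, beta1 and gamma1 subunit genes rose, by 2.15-fold to 4.16-fold. In Htr3a-KO samples alpha5 and beta2 also passed, so that 6 of the 7 rose, and Gabra3 passed in neither genotype. No member fell over this step. Of the 7, 4 were called higher in control samples, where 6.06% of the genes tested were, and 6 in Htr3a-KO samples, where 6.26% were. The median difference of the 7 was 1.11 in control and 1.57 in Htr3a-KO samples, against −0.01 and −0.10 over all genes tested. From E18.5 to P2 the members parted. Gabrg1 rose in both genotypes, Gabra2 fell in both, and Gabrb1 rose in control samples. Of the 7, 3 were called in control samples, 2 higher and 1 lower, where 19.7% of all genes were called in either direction, and 2 in Htr3a-KO samples, 1 higher and 1 lower, where 28.5% were. The members' share in the Htr3a-KO samples was thus near that of all genes. Over the whole span from E14.5 to P2 the same 5 genes, Gabra4, Gabra5, Gabrb1, Gabrb2 and Gabrg1, were called in each genotype, all of them higher. Of all genes, 39.2% were called over this span in control and 41.5% in Htr3a-KO samples, in either direction.

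**Figure D1:**
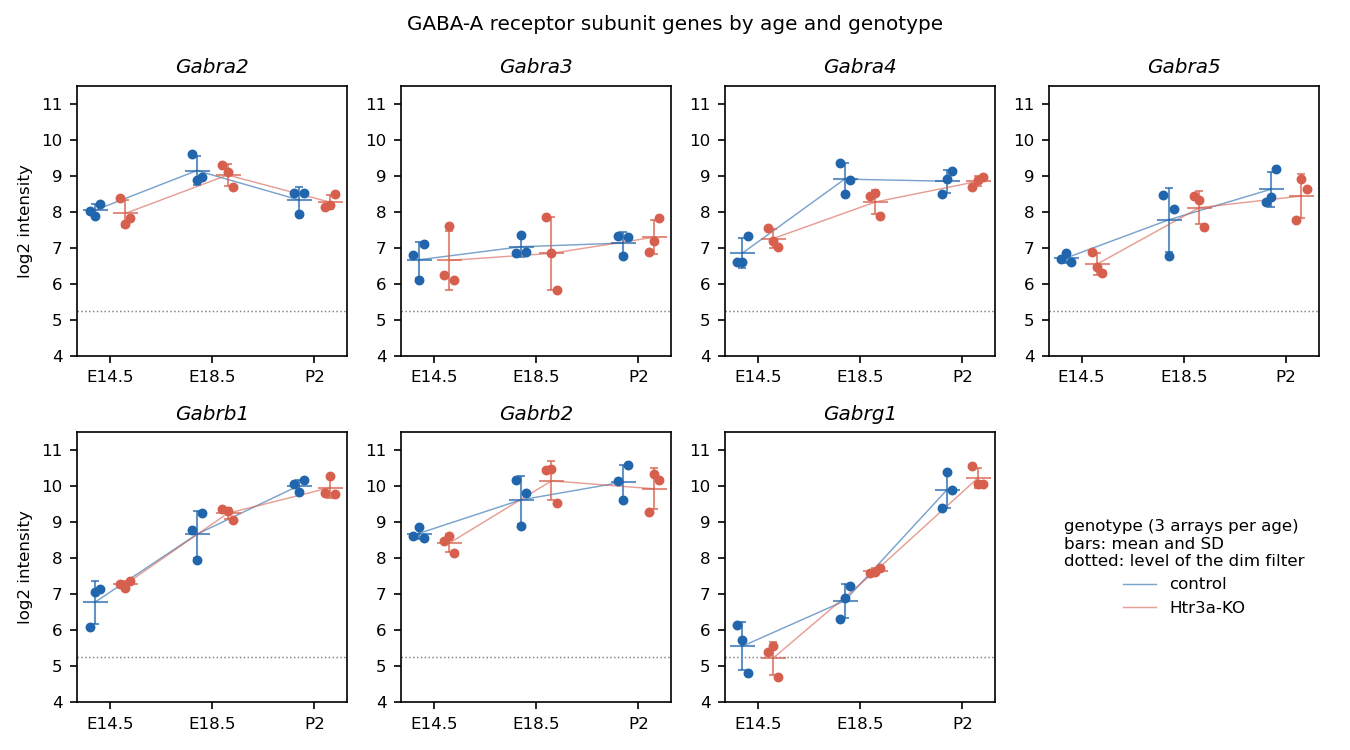
Log2 intensity (vertical axis) of the 7 subunit genes at each age (horizontal axis), with 1 point per array, horizontal marks for the mean of 3 arrays, bars for the SD and lines joining the means, in control (blue) and Htr3a-KO (red) samples. Gabrg1 and Gabrb1 climb at both steps in each genotype's means, Gabra2 is highest at E18.5, and Gabra3 scatters most in E18.5 Htr3a-KO arrays (SD 1.02); the dotted line is the level of the dim filter, 5.255.

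Gabrg1 encodes the gamma1 subunit, which in brain is found in a limited set of neurons and also in glia. In control samples, in the order of arrays 1, 2 and 3 used throughout, the E14.5 arrays gave 6.14, 5.73 and 4.82, the E18.5 arrays 6.32, 6.91 and 7.24 and the P2 arrays 9.41, 10.41 and 9.90. The Htr3a-KO arrays gave 5.41, 5.57 and 4.71, then 7.59, 7.61 and 7.74, and 10.56, 10.06 and 10.07. The ages did not overlap in either genotype, and the E14.5 arrays lay around the level of the dim filter, so a fold against E14.5 depends on a dim signal. From E18.5 to P2 Gabrg1 rose 8.48-fold in control samples, from 6.82 ± 0.47 to 9.91 ± 0.50 (difference 3.08, SE 0.33, limma adjusted p = 2.31e-05), and 5.99-fold in Htr3a-KO samples, from 7.65 ± 0.08 to 10.23 ± 0.29 (adjusted p = 9.15e-05). From E14.5 to E18.5 it rose by 1.26 (SE 0.33, adjusted p = 0.0230) in control and by 2.42 (SE 0.33, adjusted p = 3.64e-04) in Htr3a-KO samples. In control samples this rise no longer passed on leaving out array 3 at E14.5 (0.89, adjusted p = 0.0969), array 2 (1.22, 0.0587) or array 3 (1.05, 0.103) at E18.5, or with only the 6 arrays compared (0.0807). A second, dimmer probe set gave 2.19 and 2.64 for the later step in control and Htr3a-KO samples, both called, while for the earlier step it gave 0.46 in control samples, not called, and 1.02 in Htr3a-KO samples, called.

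The level of Gabrg1 moved with several of the cell type lists. Over the 18 arrays its correlation was 0.95 with the mean of the oligodendrocyte lineage genes, 0.93 with that of the astrocyte genes, 0.86 with that of the CGE (caudal ganglionic eminence) interneuron genes and −0.97 with that of the excitatory neuron genes, a description of arrays that share their ages. Within groups, as deviations from the group means, these were 0.56, 0.16, 0.55 and −0.70. With the GABAergic neuron genes it was −0.57 over all arrays and 0.73 within groups, the highest within-group value among the 10 lists. In E18.5 control arrays 1, 2 and 3, where Gabrg1 read 6.32, 6.91 and 7.24, the astrocyte mean was 7.19, 7.72 and 8.12 and the oligodendrocyte mean 7.97, 8.56 and 8.60. Both lists and Gabrg1 were thus in the same order in that group, and also in the E18.5 and P2 Htr3a-KO arrays. In P2 control arrays only the astrocyte mean shared the order of Gabrg1. At E14.5 neither list did, and the astrocyte mean ran in the reverse order in both genotypes. In E14.5 control arrays it was 7.07, 7.15 and 7.80, where Gabrg1 read 6.14, 5.73 and 4.82. Of the tested genes outside the receptor family, the ones with the smallest root mean square difference from Gabrg1 over the 18 centred arrays were Gpr17, a receptor of immature oligodendrocytes (0.40 log2), and Cbr3 (0.40), where Gabrg1 itself varied by 1.98. Gpr17 went from 6.14 ± 0.25 to 7.52 ± 0.41 and 10.47 ± 0.42 in control and from 5.84 ± 0.22 to 8.26 ± 0.22 and 10.59 ± 0.32 in Htr3a-KO samples. Of the oligodendrocyte genes, 8 of 10 were called higher from E18.5 to P2 in control samples, and of the astrocyte genes 10 of 12, where 9.96% of all genes were. The part of other cell types in the Gabrg1 values was not tested.

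**Figure D2:**
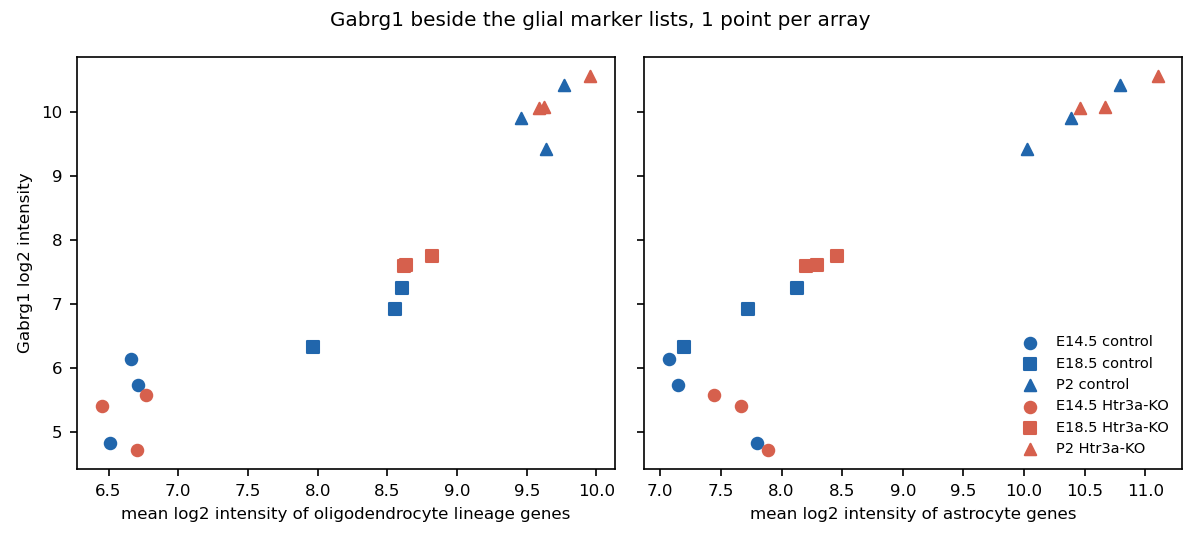
Gabrg1 log2 intensity (vertical axis) against the mean log2 intensity of 10 oligodendrocyte lineage genes (left) and 12 astrocyte genes (right), with 1 point per array, symbols for age and colours for genotype. The P2 arrays lie at the upper right in both plots (Gabrg1 9.41 to 10.56), and at E18.5 the 3 Htr3a-KO arrays lie above the 3 control arrays in Gabrg1 and in both list means.

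Gabrb1 encodes the beta1 subunit. In control samples the E14.5 arrays gave 6.10, 7.08 and 7.16, the E18.5 arrays 8.79, 7.97 and 9.26 and the P2 arrays 10.06, 9.85 and 10.17. The corresponding Htr3a-KO arrays gave 7.28, 7.19 and 7.37, then 9.37, 9.32 and 9.07, then 9.82, 10.30 and 9.78. Every array of a later age lay above every array of the earlier age in its genotype. The earlier step was 3.71-fold in control (1.89, SE 0.29, adjusted p = 7.99e-04) and 3.93-fold in Htr3a-KO samples (1.97, SE 0.29, adjusted p = 5.85e-04). The later step was 2.56-fold in control (1.35, SE 0.29, adjusted p = 0.00448), and 0.71 (SE 0.29, adjusted p = 0.0756) in Htr3a-KO samples, which did not pass. That later Htr3a-KO value passed with quantile normalization (adjusted p = 0.0463), with array weights (0.0337) and with only the 6 arrays compared (0.0196). The difference between genotypes in the later step was −0.64 (95% interval −1.51 to 0.23, adjusted p = 0.759). Both other probe sets above the dim filter gave called rises over the whole span, by 3.21 and 1.63 in control and 2.92 and 1.62 in Htr3a-KO samples. The dimmer of these, with a mean of 5.34, gave 0.62 for the earlier and 1.01 for the later step in control samples, neither called. At E14.5 both probe sets read below the level of the dim filter, with group means of 4.48 to 4.70. Their rises thus depend on a dim signal at that age. The genes nearest to Gabrb1 over the arrays were Adcy1, a neuronal adenylyl cyclase (0.25), and Cdkl2 (0.25). Its correlation with the oligodendrocyte mean was 0.94 over all arrays and −0.25 within groups. The part of other cells in its values was not tested.

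Gabrb2 encodes the beta2 subunit, a widespread beta subunit of the adult brain. In control samples the E14.5 arrays gave 8.63, 8.88 and 8.57, the E18.5 arrays 10.17, 8.89 and 9.82 and the P2 arrays 10.16, 9.62 and 10.59. The corresponding Htr3a-KO arrays gave 8.49, 8.63 and 8.16, then 10.45, 10.49 and 9.53, then 9.28, 10.35 and 10.18. E18.5 control array 2 stood level with E14.5, and E18.5 and P2 overlapped in both genotypes. The earlier step was 3.32-fold in Htr3a-KO samples (1.73, SE 0.35, adjusted p = 0.00510) and 0.93 (SE 0.35, adjusted p = 0.104) in control samples, which did not pass, although the groups did not overlap (14.4% of genes did so in this direction). Without E18.5 control array 2 the control value was 1.30 (adjusted p = 0.0279), and with array weights 1.16 (0.00656). The difference between genotypes in this step was 0.80 (95% interval −0.26 to 1.85, adjusted p = 0.723). Over the whole span Gabrb2 rose 2.69-fold in control (adjusted p = 0.00458) and 2.85-fold in Htr3a-KO samples (adjusted p = 0.00287). The 3 other probe sets above the filter gave spans of 1.16 to 1.35 in control and 1.24 to 1.69 in Htr3a-KO samples, all called.

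Gabra5 encodes the alpha5 subunit, known for receptors outside synapses that carry tonic inhibition, and had 1 probe set. In control samples the E14.5 arrays gave 6.69, 6.87 and 6.61, the E18.5 arrays 8.47, 6.79 and 8.08 and the P2 arrays 8.29, 8.42 and 9.18. The corresponding Htr3a-KO arrays gave 6.89, 6.46 and 6.30, then 8.44, 8.33 and 7.59, then 7.77, 8.92 and 8.64. Here too E18.5 control array 2 stood at the E14.5 level. The earlier step was 2.97-fold in Htr3a-KO samples (1.57, SE 0.39, adjusted p = 0.0149) and 1.06 (SE 0.39, adjusted p = 0.0942) in control samples, which did not pass. Without E18.5 control array 2 the control value was 1.55 (adjusted p = 0.0107), and with array weights 1.37 (0.00351). The Htr3a-KO call was lost without E18.5 Htr3a-KO array 1 (1.41, adjusted p = 0.0653) or array 2 (1.47, 0.0626). The genotypes differed by 0.51 in this step (95% interval −0.65 to 1.68, adjusted p = 0.815). Over the whole span Gabra5 rose 3.75-fold in control (adjusted p = 0.00118) and 3.71-fold in Htr3a-KO samples (adjusted p = 0.00111). Gabra5 and Gabrb2 shared their nearest genes, Pcdh7, a protocadherin (0.28 from Gabra5 and 0.21 from Gabrb2), and Ptprr, a receptor tyrosine phosphatase (0.29 and 0.26).

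Gabra4 encodes the alpha4 subunit, found with delta in extrasynaptic receptors of forebrain neurons and insensitive to classical benzodiazepines. In control samples the E14.5 arrays gave 6.62, 6.61 and 7.34, the E18.5 arrays 9.37, 8.49 and 8.88 and the P2 arrays 8.51, 8.92 and 9.13. The corresponding Htr3a-KO arrays gave 7.56, 7.20 and 7.02, then 8.43, 8.52 and 7.88, then 8.69, 8.90 and 8.96. In control samples E18.5 and P2 overlapped, and in Htr3a-KO samples the 3 ages did not. The earlier step was 4.16-fold in control (2.06, SE 0.25, adjusted p = 1.43e-04) and 2.02-fold in Htr3a-KO samples (1.02, SE 0.25, adjusted p = 0.0151). The later step was −0.06 (SE 0.25, adjusted p = 0.905) in control and 0.57 (SE 0.25, adjusted p = 0.0992) in Htr3a-KO samples, where it passed with the mean of both probe sets (0.64, 0.0311) and with array weights (0.49, 0.0448). The genotypes differed by −1.04 in the earlier step (95% interval −1.80 to −0.28, unadjusted p = 0.0102), which did not pass over all genes (limma adjusted p = 0.685). The Htr3a-KO call of the earlier step was lost without E14.5 Htr3a-KO array 3 (0.90, adjusted p = 0.0547), without E18.5 Htr3a-KO array 1 (0.94, 0.0622) or array 2 (0.90, 0.0726), and with the mean of both probe sets (0.62, 0.0552). The second probe set gave called spans of 0.85 and 0.93. In control samples it gave 0.66 in the earlier and 0.19 in the later step, neither called, so the earlier was the larger with both probe sets. In Htr3a-KO samples it gave 0.22, not called, and then 0.71, called, where the brighter one had its call in the earlier step. The nearest genes to Gabra4 were Fos, an immediate early gene that neuronal activity and tissue handling induce (0.35), and Hspb3 (0.36). Fos went from 11.31 ± 0.49 to 13.28 ± 0.18 and 13.55 ± 0.08 in control samples.

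Gabra2 encodes the alpha2 subunit, a main alpha subunit of the immature forebrain that is found at synapses. In control samples the E14.5 arrays gave 8.02, 7.88 and 8.23, the E18.5 arrays 9.60, 8.89 and 8.96 and the P2 arrays 8.54, 7.93 and 8.53. The corresponding Htr3a-KO arrays gave 8.38, 7.67 and 7.83, then 9.30, 9.10 and 8.68, then 8.13, 8.19 and 8.50. In both genotypes all E18.5 arrays lay above those of the other ages, and E14.5 and P2 overlapped. The rise was 2.15-fold in control (1.11, SE 0.23, adjusted p = 0.00661) and 2.09-fold in Htr3a-KO samples (1.07, SE 0.23, adjusted p = 0.00789). The fall to P2 was −0.82 (SE 0.23, adjusted p = 0.0225) in control and −0.75 (SE 0.23, adjusted p = 0.0258) in Htr3a-KO samples. P2 differed from E14.5 by 0.29 (95% interval −0.21 to 0.79) and 0.31 (−0.18 to 0.81), which did not pass. The rise was called in every alternative run, and the fall was not. It was lost without E18.5 control array 1 (−0.59, adjusted p = 0.116), P2 control array 2 (−0.61, 0.109), E18.5 Htr3a-KO array 1 (−0.62, 0.108) or 2 (−0.72, 0.0698), or P2 Htr3a-KO array 1 (−0.68, 0.0897) or 2 (−0.71, 0.0685). It was also lost in control samples with only the 6 arrays compared (adjusted p = 0.0701). Of the 2 other probe sets above the filter, both rose in each genotype (1.20 to 1.68) and fell in Htr3a-KO samples (−0.85 and −1.04), and in control samples 1 fell (−0.69) and 1 gave −0.58, which did not pass. At P2 both were called above E14.5 in control samples (0.69 and 0.84) and 1 was in Htr3a-KO samples (0.64, against 0.35 for the other), where the brightest was in neither, and with the mean of the probe sets the control difference passed too (0.61, adjusted p = 0.0332). The nearest genes were Lancl3 (0.24) and Eml1 (0.25).

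Gabra3 encodes the alpha3 subunit, another subunit of the immature cortex. In control samples the E14.5 arrays gave 6.80, 6.11 and 7.10, the E18.5 arrays 6.85, 7.36 and 6.89 and the P2 arrays 7.32, 6.78 and 7.31. The corresponding Htr3a-KO arrays gave 6.26, 7.60 and 6.10, then 7.87, 6.85 and 5.83, then 6.89, 7.18 and 7.82. All ages overlapped in both genotypes. The span from E14.5 to P2 was 0.47 (95% interval −0.51 to 1.44) in control and 0.64 (−0.33 to 1.62) in Htr3a-KO samples. These intervals are the widest of the 7 genes and hold a 2-fold rise, so a rise of that size lies within the error of these arrays.

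**Figure D3:**
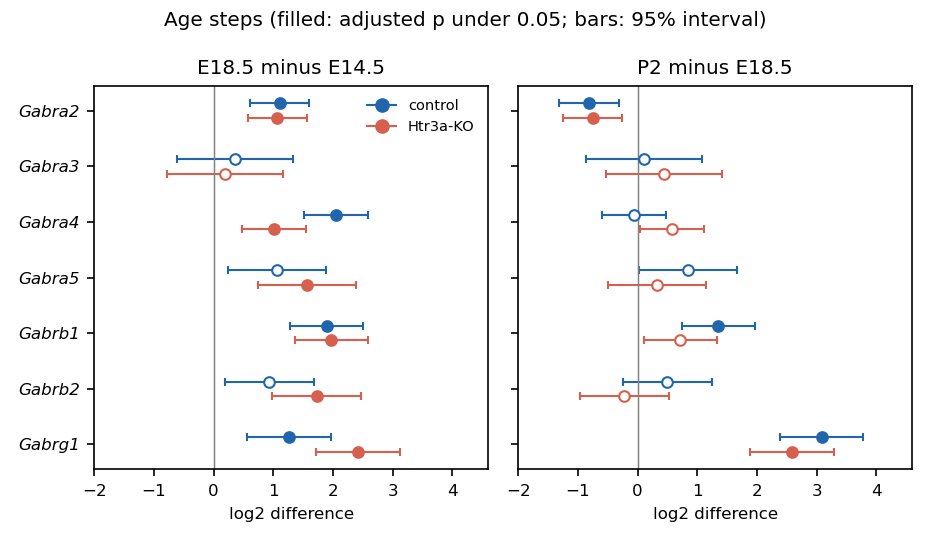
Log2 difference (horizontal axis) of each subunit gene from E14.5 to E18.5 (left) and from E18.5 to P2 (right), in control (blue) and Htr3a-KO (red) samples, with 95% intervals and filled points where the adjusted p was under 0.05. All points but those of Gabra3 lie at 0.93 or more in the earlier step, while in the later step Gabrg1 stands at 3.08 and 2.58 and Gabra2 at −0.82 and −0.75.

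Whether loss of Htr3a shifted these genes was tested at each age. No member passed at E14.5, E18.5 or P2, nor for the mean over ages, in limma. At an unadjusted p under 0.05 the counts of members were 0, 2, 0 and 0, where 5.86%, 12.9%, 7.58% and 11.2% of all genes were. Over all 14292 genes those called numbered 2 (0.0140%), 3 (0.0210%), 5 (0.0350%) and 42 (0.294%), so few calls were made in any of these comparisons. The 2 members at E18.5 were Gabra4, at −0.64 in Htr3a-KO minus control samples (95% interval −1.17 to −0.10, unadjusted p = 0.0227, adjusted p = 0.328), and Gabrg1 at 0.82 (0.12 to 1.53, unadjusted p = 0.0247, adjusted p = 0.336). The genotypes overlapped for Gabra4, since Htr3a-KO array 2 (8.52) lay above control array 2 (8.49), and did not for Gabrg1 (5.56% of genes did so in this direction). With array weights both passed, Gabra4 at −0.69 (adjusted p = 0.0437) and Gabrg1 at 0.98 (0.0329). Beside the Gabrg1 value, the astrocyte mean was 8.20 to 8.46 in Htr3a-KO and 7.19 to 8.12 in control arrays at E18.5, and Gpr17 8.26 ± 0.22 and 7.52 ± 0.41. In the same order, the endothelial and mural mean was 7.40 ± 0.32 and 6.73 ± 0.44. That of 9 neural progenitor genes was 10.37 ± 0.29 and 9.81 ± 0.46. The part of RNA of glia or other cells in the Gabrg1 difference was not tested.

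For the other members the intervals limit the difference that may have been missed. Gabra2 differed by −0.08 (95% interval −0.58 to 0.41), −0.12 (−0.62 to 0.37) and −0.06 (−0.56 to 0.44) at E14.5, E18.5 and P2, which leaves out a 2-fold difference at each age. Gabrb1 was at 0.50 (−0.11 to 1.11), 0.58 (−0.03 to 1.19) and −0.06 (−0.67 to 0.55), with a mean over ages of 0.34 (−0.01 to 0.69, adjusted p = 0.467). Its groups did not overlap at E14.5, where 4.98% of genes were wholly higher in Htr3a-KO samples. Gabra5 and Gabrb2 differed at E18.5 by 0.34 (−0.48 to 1.16) and 0.53 (−0.22 to 1.28), intervals that hold a 2-fold difference. At P2 all 7 differences lay between −0.19 and 0.32. The P2 intervals of Gabra3 (−0.81 to 1.13), Gabra5 (−1.01 to 0.64) and Gabrg1 (−0.38 to 1.03) still hold a 2-fold difference. Gabra3 was at −0.02 (−0.99 to 0.96) at E14.5 and −0.18 (−1.16 to 0.79) at E18.5. The genotype difference in a step passed for no member (0.00700% of genes in the earlier and 0% in the later step). At an unadjusted p under 0.05 there were 2 in the earlier step (7.22% of genes), Gabra4 (above) and Gabrg1 at 1.16 (0.16 to 2.15, adjusted p = 0.685), and 0 in the later step (7.23%).

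**Figure D4:**
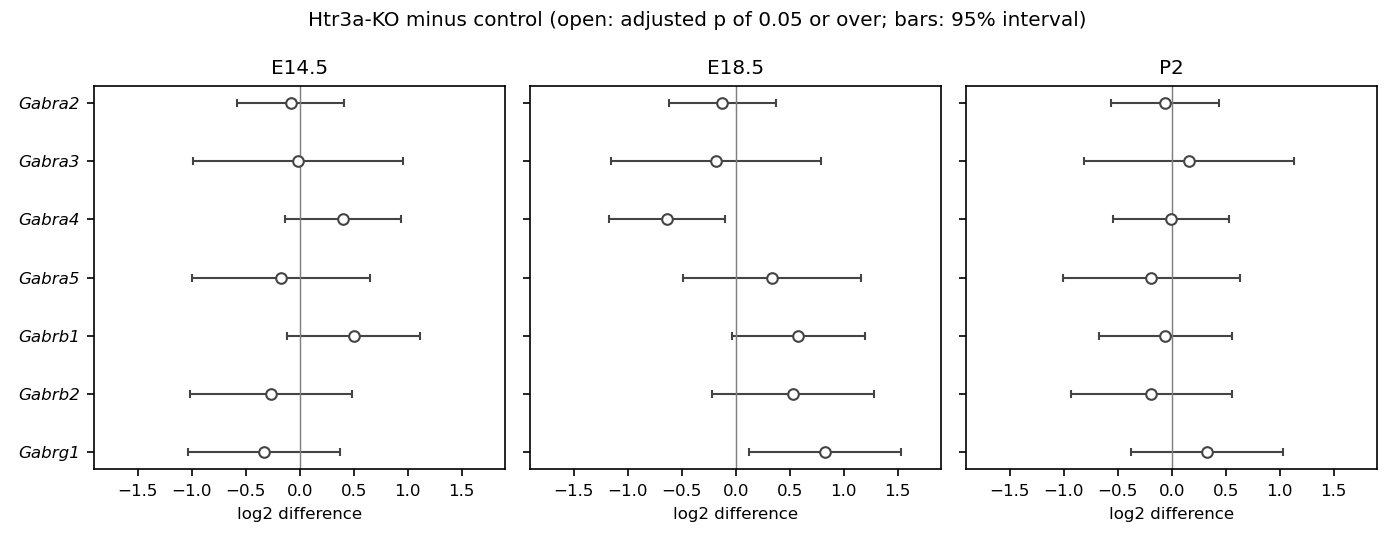
Log2 difference of Htr3a-KO minus control samples (horizontal axis) for each subunit gene at E14.5, E18.5 and P2, with 95% intervals and open points because none had an adjusted p under 0.05. The intervals of Gabra4 (−1.17 to −0.10) and Gabrg1 (0.12 to 1.53) at E18.5 leave out 0 before adjustment.

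Within groups, 4 of the genes (Gabra2, Gabra4, Gabra5 and Gabrb2) tended to deviate together from array to array. As deviations from the group means over the 18 arrays, Gabra5 and Gabrb2 had a correlation of 0.92 and Gabra4 and Gabra5 0.71. Gabra2 had 0.66 with Gabra4, 0.61 with Gabrb2 and 0.59 with Gabra5, and Gabra4 and Gabrb2 had 0.59. Outside these 4, Gabrb1 came near with 0.58 with Gabra5, 0.54 with Gabrb2 and 0.46 with Gabra4, but had 0.23 with Gabra2. Gabrg1 ran from −0.53 with Gabra2 to −0.11 with Gabra3. E18.5 control array 2 was the lowest of its group for 5 of the 7 genes and E18.5 Htr3a-KO array 3 for 6. P2 Htr3a-KO array 1 and E14.5 Htr3a-KO array 3 were each the lowest for 5. Over all genes the median deviations of these 4 arrays were 0.04, 0.02, 0.02 and −0.01. The mean of the oligodendrocyte genes deviated the other way, with correlations of −0.84 for Gabra2, −0.75 for Gabra4, −0.73 for Gabra5 and −0.68 for Gabrb2, against 0.56 for Gabrg1. Other lists moved with these 4 genes too. In the same order, the endothelial and mural mean had 0.44, 0.56, 0.66 and 0.64. The neural progenitor mean had −0.42, −0.25, −0.55 and −0.67, and the GABAergic neuron mean −0.41, −0.64, −0.31 and −0.30. These are descriptions over 18 arrays that share group means, and the part of cell makeup in them was not tested. The 3' to 5' difference of the Gapdh control probe sets, a sign of RNA quality, ran from 1.55 to 2.20 over all 18 arrays. On the 4 arrays with low readings, in the order above, it was 1.64, 2.12, 1.89 and 1.98. The first of these was the lowest of its group, and the second and last were the highest. The difference of the actin probe sets was 1.04, 1.18, 0.75 and 0.81, against 0.57 to 1.22 over all arrays. It was the highest of its group on both E18.5 arrays and the lowest on P2 Htr3a-KO array 1. The part of RNA quality in the low readings was not tested.

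**Figure D5:**
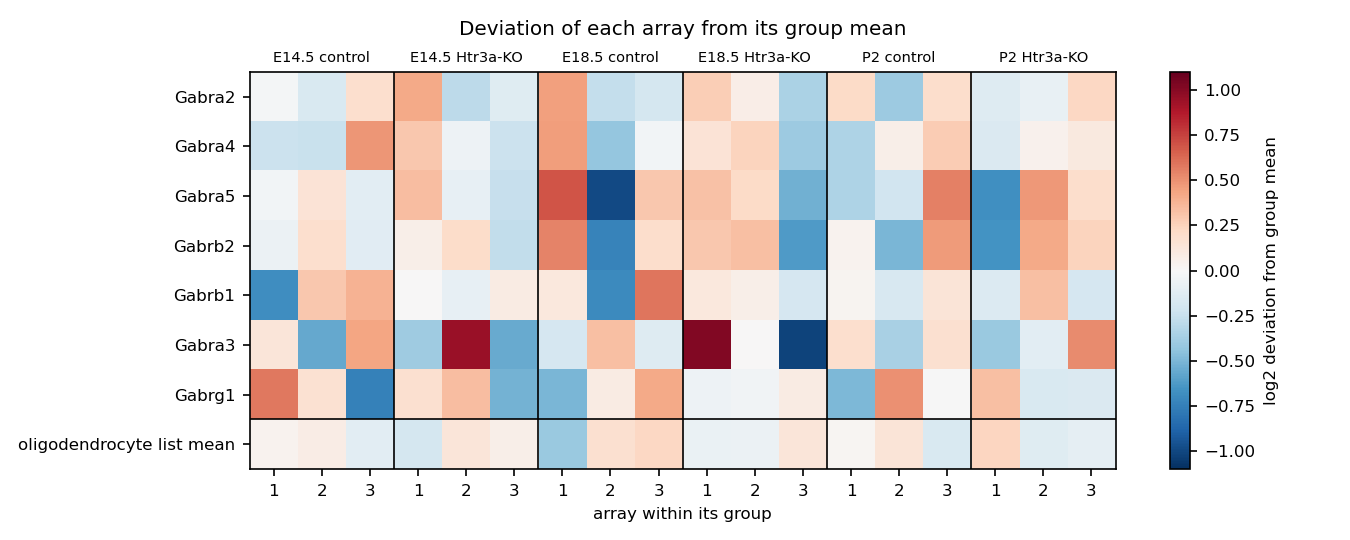
Deviation of each array from its group mean in log2 units (colour), for the 7 subunit genes and, in the last row, the mean of 10 oligodendrocyte lineage genes, with arrays 1 to 3 of each group as columns. Gabra2, Gabra4, Gabra5 and Gabrb2 are low together in E18.5 control array 2 and E18.5 Htr3a-KO array 3, where the oligodendrocyte mean is above its group mean.

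Of 12 other GABA-A receptor subunits listed, 5 were tested (Gabrd, Gabre, Gabrg3, Gabrp and Gabrr1), 3 lay below the dim filter (Gabra6, Gabrq and Gabrr2) and 4 were not analysed here. The 5 tested had means of 5.31 to 5.60 over the arrays, near the filter, and none was called in any of the 12 comparisons. Gabbr1, a subunit of the metabotropic GABA-B receptor, rose by 0.70 from E14.5 to E18.5 in control samples (adjusted p = 0.00189) and by 0.88 and 0.58 from E14.5 to P2 in control and Htr3a-KO samples. Slc12a5, the chloride exporter KCC2 that lowers chloride in maturing neurons, rose over that span by 1.41 (adjusted p = 0.00103) and 1.22 (adjusted p = 0.00264). Slc12a2, the chloride importer NKCC1, was called in no comparison.

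Of 21 tested genes that cluster and traffic the receptor, 1 rose and 0 fell from E14.5 to E18.5 in control samples, and 0 rose and 1 fell in Htr3a-KO samples. From E18.5 to P2 it was 2 up and 1 down in each genotype. Of all 14292 genes, 1571 in control and 2163 in Htr3a-KO samples were called in the earlier step, in either direction. In the later step these were 2818 and 4070, so the list's share was below that of all genes in both steps. Over the whole span 4 of the 21 rose and 4 fell in control samples, with a median of 0.02. In Htr3a-KO samples 2 rose and 2 fell, with a median of 0.07. Over all genes 39.2% and 41.5% were called over this span, so the list's share was near that of all genes in control and below it in Htr3a-KO samples. Gphn, the gephyrin scaffold of inhibitory synapses, fell by 0.39 over the span in control samples (adjusted p = 0.0289). Kif5a, a kinesin that carries receptors in neurons, rose by 1.01 (adjusted p = 3.49e-04) and 0.55 (0.0189), and Nsf, a fusion ATPase, by 0.68 in control samples (adjusted p = 6.86e-04). Gabarapl2 fell by 0.56 over the span in control and by 0.48 in Htr3a-KO samples (adjusted p = 4.60e-04 and 0.00131). The others called in at least 1 age comparison were Gabarapl1, Slitrk3, Iqsec3, Insyn1 and Clptm1, all higher at the later age, and Mdga1, Rdx, Lhfpl4 and Gabarap, all lower. No gene of these lists was called between genotypes at any age.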

How the data were processed

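RNA of 18 pools of sorted interneurons was measured on Affymetrix mouse genome arrays. Per the series' design text, the authors read signals with Partek Genomic Suite 6.6 and normalised them by robust multi-array averaging, so the deposited values are log2 intensities, used here as deposited. Arrays carry no counts, and their number limits the precision. Probe sets in the lowest 30% of means were left out, and the fit used limma 3.58.1 (R 4.3.3) on all 18 arrays as 6 group means, with 12 residual degrees of freedom and Benjamini-Hochberg adjustment over all 14292 genes. A gene was called at an adjusted p under 0.05. P-values measure the spread between litter pools. Named genes are the 7 members, the other receptor subunits, list genes past the threshold, Htr3a, up to 3 defining markers per cell type, and the 2 tested genes nearest to each member called with age. Members and lists were chosen with earlier results of these data known. Arrays with the same number did not deviate together (over 0.1 in 12 of 45 pairs), so they were not paired. Tests were tried on simulated data. Alternatives changed the centring, filter, probe set rule, prior, array weights, arrays and block. Sequences are RefSeq's.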

Additional observations from a re-analysis of the deposited data

How the results depend on the processing

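Of 25 called differences of single members, each recomputed in 16 alternatives, none changed sign, and 17 of their recomputed values lost the call. Among the 59 uncalled differences, 12 recomputed values gained a call. The recomputed values of both kinds numbered 1505. Uncalled values changed sign 88 times. The count of members called moved by over 1.5 times in 2 comparisons. With array weights it was 4 in place of 2 for Htr3a-KO P2 against E18.5, and 2 in place of 0 for Htr3a-KO against control at E18.5. The cause was not tested. Leaving out 1 array at a time gave 1 to 2 members for Htr3a-KO P2 against E18.5 (1 without array 1 or 2 of either age, where Gabra2 lost its call), 3 to 5 (4 with all arrays) for control E18.5 against E14.5, 4 to 6 (6 with all) for the same step in Htr3a-KO samples, and 0 in every genotype comparison. With the replicate block the counts were 4, 3 and 5 for the control steps and span and 6, 2 and 5 for those of Htr3a-KO samples, as without it, and 0 for the genotype comparisons. Same-numbered arrays correlated best in 28 of 90 cases. Dim signal limits Gabrg1 at E14.5, and its second probe set at E14.5 and E18.5.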

Other observations

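Gabra3 is the X-linked gene of the 7, and 2 arrays stood apart in a sex-linked transcript. For Xist, which is transcribed from the inactive X, E14.5 Htr3a-KO array 2 gave 7.87, against 10.86 to 12.67 on the remaining ones. Gabra3 read 7.60 there and 6.26 and 6.10 in the other arrays of its group. For the Y-linked Eif2s3y, array 2 of the E18.5 controls gave 4.07, against 8.25 to 9.78 for the remaining arrays, and Gabra3 read 7.36 in that array and 6.85 and 6.89 beside it. Both readings lie within the range of Gabra3 over the 18 arrays (5.83 to 7.87). The widest spread of Gabra3 was in E18.5 Htr3a-KO arrays (7.87, 6.85 and 5.83), where Xist was 12.28 to 12.67.

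Of the 21 probe sets of the 7 genes, 16 lay above the dim filter. The 5 below it, 2 of Gabra2 and 1 each of Gabra3, Gabrb1 and Gabrb2, were left out of the main fit. They were tested only in a fit without the filter, whose results are not given here.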
